A study of Mus musculus with 6 samples.

Results

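The genes described here are 49 mouse genes that copy DNA or control entry into S phase, chosen by symbol and found by Entrez ID among 27179 genes of the deposited count table. All 49 were found. They were measured by RNA-seq in 6 libraries of splenic CD8-negative dendritic cells, 3 from CpG-pretreated and 3 from untreated C57BL/6 mice, for which no transgene or mutation is named. CpG DNA is a ligand of Toll-like receptor 9, and by its title the series concerns dendritic cells left paralysed after systemic inflammation. The dose, route and timing of CpG, the age and sex of the mice, and whether a library came from 1 mouse or a pool were not given in any source used here, so p-values measure the spread between these libraries only.

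Before a cell copies its genome, the origin recognition complex with Cdc6 and Cdt1 loads the hexameric Mcm2 to Mcm7 helicase onto DNA, and Cdc45, GINS and Mcm10 then activate it. DNA polymerases, with the sliding clamp PCNA and its loader RFC, extend new strands from primers, while ribonucleotide reductase and thymidylate synthase supply nucleotides. E2F transcription factors and cyclin E switch these genes on at the G1/S transition. In spleen, committed precursors and some differentiated conventional dendritic cells still divide. In a bulk library a larger share of cycling cells and more of these transcripts per cell cannot be told apart.

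Promoter sequences are shown first because the E2F site is a known regulatory element of genes of this kind. It was found below in only some of the windows searched. RefSeq sequences around annotated starts on GRCm38.p6 (250 bases before to 50 after) were at hand for 41 of the 49 genes, in 48 windows. Both strands were searched for the 4 octamers TTTCCCGC, TTTGGCGC, TTTCGCGC and TTTGCCGC and for the pentamer CCAAT, the core of the NF-Y site. An octamer was present in 16 of the 48 windows (33.3%), against 4.17% of 11554 windows of the genes tested and 2.26% of all 32851 windows. CCAAT was present in 62.5% of the windows, against 38.1% for the genes tested. The 200 bases before the start are printed for 7 genes to which the results below return, with octamers and CCAAT in capitals on either strand. These 7 were picked, so they do not show how common the octamers are. Overlapping octamers appear as a single longer run. For Mcm5, Orc1, Cdc6 and E2f8 the start used lies inside the span of the gene, downstream of its outermost 5′ end, so all or part of the printed stretch is within that span.
Mcm5 (chr8:75109309-75109508, plus strand): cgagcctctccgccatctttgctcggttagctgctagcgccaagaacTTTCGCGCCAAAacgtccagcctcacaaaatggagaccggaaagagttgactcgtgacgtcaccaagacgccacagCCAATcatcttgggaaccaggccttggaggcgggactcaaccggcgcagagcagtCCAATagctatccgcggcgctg
Mcm6 (chr1:128359706-128359905, minus strand): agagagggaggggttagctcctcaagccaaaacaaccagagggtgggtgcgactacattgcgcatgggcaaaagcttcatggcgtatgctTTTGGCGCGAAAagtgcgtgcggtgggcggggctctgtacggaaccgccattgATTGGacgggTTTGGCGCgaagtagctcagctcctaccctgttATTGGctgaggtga
Orc1 (chr4:108579254-108579453, plus strand): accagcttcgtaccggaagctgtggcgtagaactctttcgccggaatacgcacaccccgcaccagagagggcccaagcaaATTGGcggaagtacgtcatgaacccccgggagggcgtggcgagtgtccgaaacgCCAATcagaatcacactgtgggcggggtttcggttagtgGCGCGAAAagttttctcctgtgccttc
Cdc6 (chr11:98907951-98908150, plus strand): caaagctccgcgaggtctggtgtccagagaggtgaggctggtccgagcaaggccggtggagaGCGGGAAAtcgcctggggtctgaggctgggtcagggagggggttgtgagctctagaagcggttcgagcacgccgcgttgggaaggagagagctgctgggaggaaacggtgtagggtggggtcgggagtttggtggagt
E2f7 (chr10:110745239-110745438, plus strand): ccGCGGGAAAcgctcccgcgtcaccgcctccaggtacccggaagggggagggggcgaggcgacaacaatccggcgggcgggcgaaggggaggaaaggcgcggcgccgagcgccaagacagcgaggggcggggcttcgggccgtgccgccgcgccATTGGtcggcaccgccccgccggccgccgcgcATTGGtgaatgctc
E2f8 (chr7:48881597-48881796, minus strand): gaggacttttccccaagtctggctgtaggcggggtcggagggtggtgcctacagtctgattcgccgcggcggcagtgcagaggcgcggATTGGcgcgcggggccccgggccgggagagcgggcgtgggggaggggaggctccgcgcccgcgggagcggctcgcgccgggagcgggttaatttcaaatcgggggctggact
Gins3 (chr8:95633359-95633558, plus strand): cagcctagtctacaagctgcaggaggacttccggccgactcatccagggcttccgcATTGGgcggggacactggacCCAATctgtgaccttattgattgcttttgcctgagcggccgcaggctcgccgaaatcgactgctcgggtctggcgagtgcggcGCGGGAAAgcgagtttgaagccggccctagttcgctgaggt
The Mcm5 and Mcm6 promoters each hold a pair of octamers on opposite strands that overlap, and Mcm6 has a further one closer to its start. The Cdc6, Orc1, E2f7 and Gins3 stretches hold 1 octamer each, and that of E2f8 holds CCAAT and no octamer of this set. A match describes letters, not binding. The 16 genes with an octamer had a median log2 fold change (CpG-pretreated over untreated) of 0.403 and the 25 without one 0.338, a difference that was not tested.

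Total counts were 7989245 to 8111975 in CpG-pretreated and 7855500 to 8228140 in untreated libraries, so that 1 count was worth 0.122 to 0.127 CPM, the counts scaled to a common library total, before TMM normalization, a scaling that evens out differences in RNA composition. The sorted cells carried the transcripts of conventional dendritic cells in every library, with Itgax at 1812 to 2275 CPM, the MHC class II gene H2-Aa at 7920 to 10536 CPM and the transcription factor gene Zbtb46 at 138 to 177 CPM, while Cd8a stood at 1.23 to 4.69 CPM. Summed markers of T cells (6 genes) came to 1.72 to 4.42 CPM and those of B cells (6 genes) to 42.0 to 59.7 CPM. Erythroid markers differed with the groups. The 14 erythroid genes found in the table summed to 1373, 1247 and 291 CPM in libraries 2, 3 and 4 of CpG-pretreated mice, against 36.0, 126 and 34.4 CPM in untreated libraries 2, 3 and 4. Of these, 5 of 10 tested were called higher (edgeR adjusted p under 0.05, libraries not paired), or 6 of 10 with libraries of the same number paired. Over all genes tested, 0.474% were called higher and 0.500% lower without pairing, and 4.73% and 3.78% with it. Hba-a1 was at 0 in all libraries. The 10 macrophage markers summed to 329 to 453 CPM in CpG-pretreated and 468 to 598 CPM in untreated libraries. Of these, 3 of 10 were called lower, or 8 of 10 with pairing. The 9 markers of neutrophils and granulocyte precursors summed to 105, 61.5 and 53.9 CPM in CpG-pretreated libraries 2, 3 and 4. In untreated libraries they summed to 77.7, 33.1 and 3.44 CPM (0 of 7 tested called, or 1 of 7 higher with pairing). The 6 haematopoietic progenitor markers, mostly Kit and Flt3, summed to 1079 to 1356 CPM (0 of 5 tested called, or 1 of 5 lower with pairing). Markers of dendritic cell subsets are given for comparison. The 7 genes of cDC1, the subset that cross-presents antigen, summed to 151, 184 and 94.6 CPM in CpG-pretreated and 84.4, 106 and 91.3 CPM in untreated libraries 2, 3 and 4 (median log2 fold change 0.79, with 0 of 7 called, or 4 of 7 higher with pairing). The 8 genes of cDC2, the main CD8-negative subset, summed to 2165.8, 2212 and 2877 CPM in CpG-pretreated and 2705, 2952 and 2990 CPM in untreated libraries (median log2 fold change -0.40, with Esam lower, or 4 of 8 lower with pairing). The genes of each subset list did not all move together. Among cDC1 genes Clec9a was near 0 (log2 fold change 0.01) and Cadm1 below it (-0.40), against the positive median. Among cDC2 genes Sirpa was near 0 (-0.07) and Clec10a above it (0.54), against the negative median. Red cell precursors divide, and their part, that of the subsets and that of the other cell types in the levels below were not tested.

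Summed over the 49 genes, transcripts for DNA replication were more abundant in each CpG-pretreated library than in any untreated one. Their summed level was 4830, 4209 and 3858 CPM in libraries 2, 3 and 4 of CpG-pretreated mice, against 3328, 3406 and 3201 CPM in the same numbers of untreated mice, with means of 4299 ± 492 and 3312 ± 104 CPM (SD, n = 3 each). CpG-pretreated library 2 was the highest. The median log2 fold change was 0.35 over the 49 genes (quartiles 0.23 and 0.44) and -0.01 over all 11602 genes tested. Without CpG-pretreated library 2 the median over the 49 genes was 0.23. With all 6 libraries the log2 fold change was above 0 in 46 of the 49 genes, against 48.9% of all genes tested.

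Differences for single genes were modest, and how many passed the test (adjusted p under 0.05) depended on whether libraries of the same number were paired. In counts of genes, those that rose or fell are those called higher or lower at this threshold. A gene that was not called can still have a higher level. All 49 genes passed the filter on low counts. In edgeR's quasi-likelihood test over all genes, with Benjamini-Hochberg adjustment, 1 of the 49 rose (E2f8) where 0.474% of all genes tested did, and 0 fell where 0.500% did (0.974% were called in either direction). At an unadjusted p under 0.05, 30 of the 49 were higher (6.64% of all genes tested) and 0 lower. With the replicate number as a block, a term that sets libraries of the same number against each other, 30 of the 49 rose and 0 fell (0 at an unadjusted p under 0.05), beside 4.73% of all genes tested higher and 3.78% lower (8.52% in either direction). In 29 of the 49 the CpG-pretreated libraries did not overlap the untreated ones and lay above them, against 9.20% of all genes tested, and in 0 they lay below, against 9.47% (18.7% in either direction). In 42 of the 49 the CpG-pretreated library exceeded the untreated library of the same number in all 3 pairs, against 22.2% of all genes tested. Median log2 ratios within pairs 2, 3 and 4 were 0.50, 0.32 and 0.26. Erythroid markers in those CpG-pretreated libraries summed to 1373, 1247 and 291 CPM, and in the untreated ones to 36.0, 126 and 34.4 CPM. A link between these sums and the ratios was not tested. With the block and pair 2, 3 or 4 left out, 11, 17 and 30 of the 49 rose. In those fits 513 of 11634, 482 of 11621 and 1594 of 11762 genes tested were called in either direction. In all 3 cases and with all pairs, 10 of the 49 rose: Ccne1, Chaf1a, E2f8, Lig1, Mcm10, Mcm5, Pole, Rrm1, Rrm2 and Uhrf1. These fits share libraries, and the share of all genes called in every one of them was not computed.

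**Figure D1:**
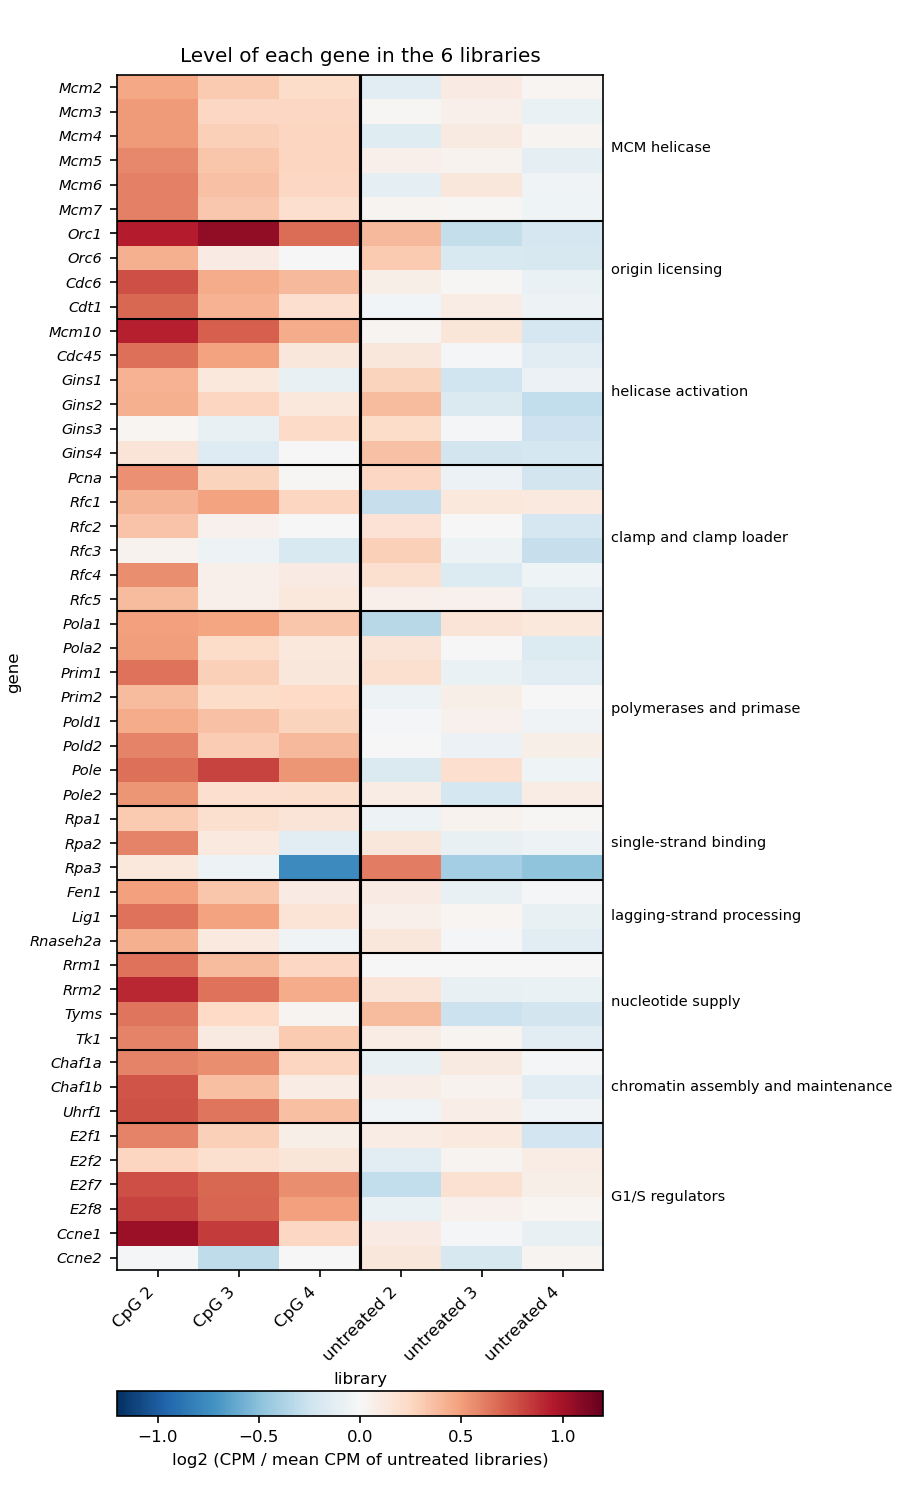
Level of each of the 49 genes (rows, grouped by role) in the 6 libraries (columns), as the log2 ratio of its CPM to its mean CPM in untreated libraries. Most rows are red in CpG 2, 3 and 4, deepest in CpG 2, while the Gins, Rfc3, Rpa3 and Ccne2 rows are pale or mixed.

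The regulators of the G1/S switch held both the gene with the smallest p of the 49 and a gene with a fold change below 0. E2f8, an atypical E2F that represses E2F target genes (Entrez 108961, chromosome 7, 48866429 to 48882073 on GRCm38.p6), was at 86.0, 79.6 and 68.9 CPM in libraries 2, 3 and 4 from CpG-pretreated mice, against 46.3, 50.9 and 49.7 CPM in the libraries of those numbers from untreated mice. All CpG-pretreated values exceeded all untreated ones, with means of 78.2 ± 8.64 CPM in CpG-pretreated and 48.96 ± 2.36 CPM in untreated libraries (SD, n = 3 each), and the gene rose 1.60-fold (log2 fold change 0.68, SE 0.11, edgeR adjusted p = 0.0427, and 0.000474 with the block). It lost its call by limma-voom (adjusted p = 0.0569) and with 5 of the 6 libraries left out in turn: CpG-pretreated 2 (0.158) or 3 (0.150), and untreated 2 (0.0602), 3 (0.179) or 4 (0.163). Without CpG-pretreated 4 it kept the call (0.0127). The RefSeq annotation places long non-coding RNA genes over its span, and as the strand setting of the counting is not given, their reads cannot be told from those of E2f8.

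E2f7, the other atypical E2F, had 20.9, 19.7 and 18.01 CPM after CpG pretreatment, against 9.95, 13.9 and 12.8 CPM in untreated mice. The libraries of the groups stood apart here too (log2 fold change 0.68, SE 0.16, edgeR adjusted p = 0.0900, and 0.0106 with the block). Ccne1, which encodes cyclin E1, the partner that activates Cdk2 at S phase entry (Entrez 12447, chromosome 7, 38097984 to 38107490), was at 34.3, 30.2 and 20.02 CPM after CpG pretreatment, against 18.1, 16.6 and 15.9 CPM in untreated mice. Its CpG-pretreated library 4 was the lowest of its group and just above the highest untreated one (log2 fold change 0.74, SE 0.20, edgeR adjusted p = 0.126, and 0.00353 with the block). The cyclin E2 gene Ccne2 was at 7.60, 6.21 and 7.68 CPM after CpG pretreatment, against 8.48, 6.75 and 7.87 CPM in untreated mice, with groups that overlapped (log2 fold change -0.10, SE 0.18, edgeR adjusted p = 0.915, and 0.797 with the block). Whether the cyclin E genes differed from each other in response was not tested.

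The activator E2F genes had smaller differences. E2f2, the most abundant regulator of the set by CPM, stood at 171, 163 and 158 CPM after CpG pretreatment, against 130.4, 146 and 152 CPM in untreated mice. The groups did not overlap, but neither fit called it (log2 fold change 0.20, SE 0.10, edgeR adjusted p = 0.465, and 0.174 with the block). E2f1 differed by 0.33 on the log2 scale and was called with the block only (edgeR adjusted p = 0.439, and 0.0362 with the block).

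**Figure D2:**
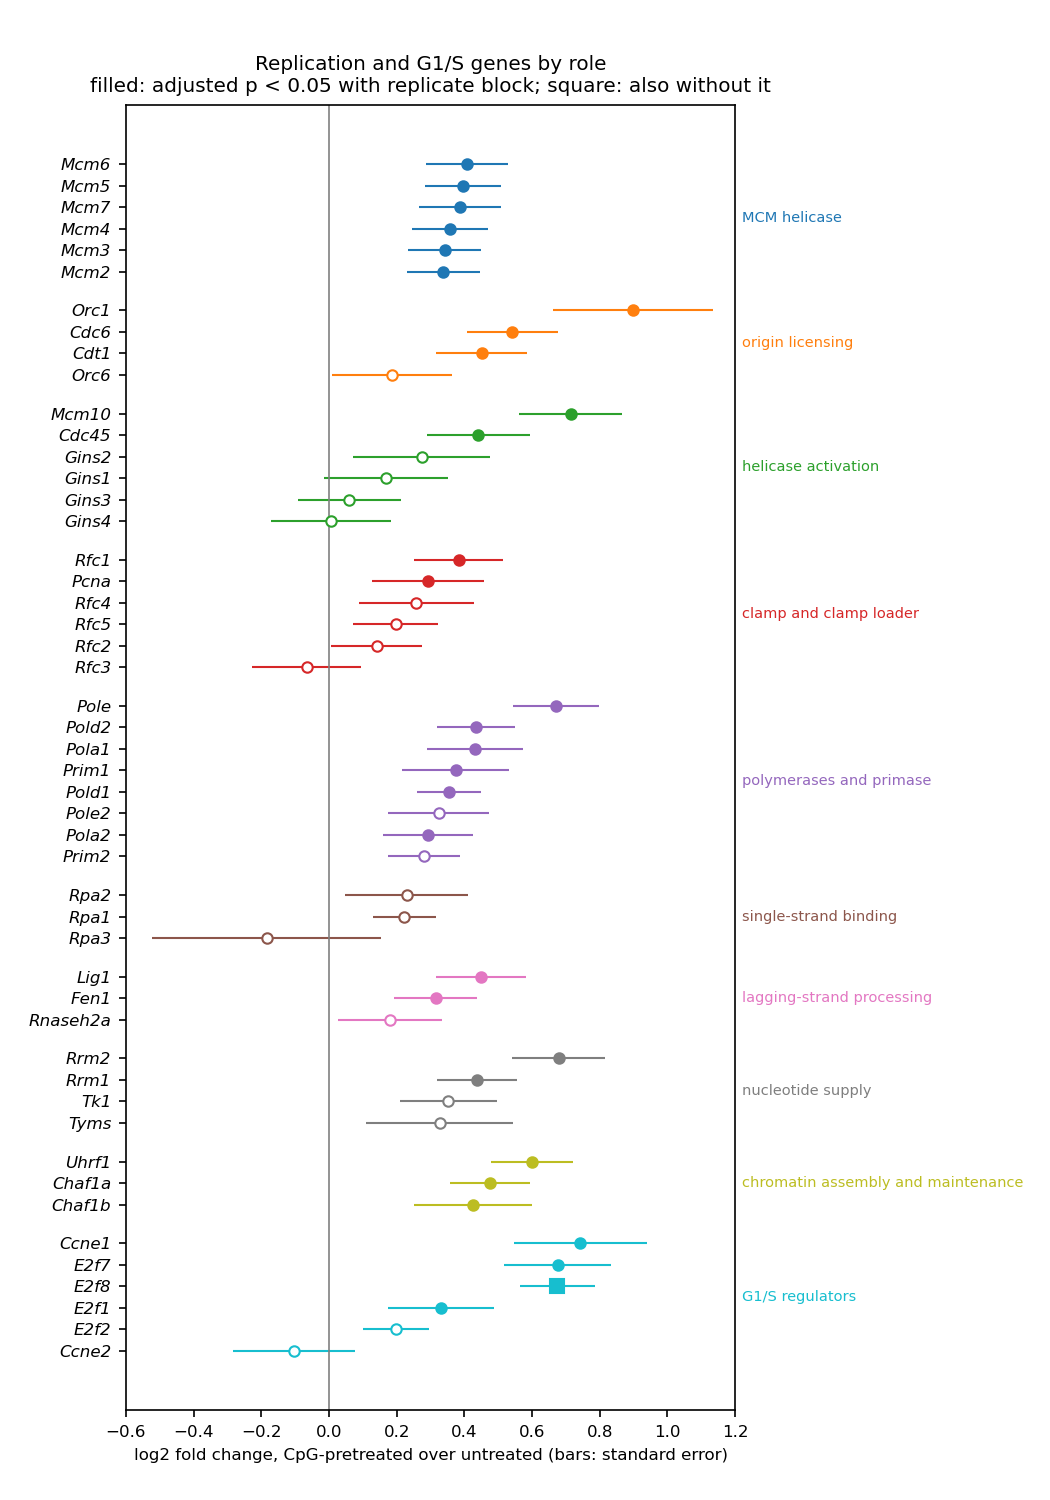
Log2 fold change of CpG-pretreated over untreated for each of the 49 genes, grouped by role, with its standard error as a bar (3 libraries per group). Filled symbols mark the 30 genes called with the replicate block and the square marks E2f8, also called without it. The MCM genes lie close together between 0.34 and 0.41, while the helicase activation group runs from 0.01 to 0.71.

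The 6 genes of the replicative helicase had similar fold changes. With the block 6 of 6 rose, and without it 0 of 6 were called by edgeR (adjusted p 0.160 to 0.217, with 6 of 6 at an unadjusted p under 0.05). Mcm6 (Entrez 17219, chromosome 1, 128331575 to 128359705) was at 364, 306 and 286 CPM in libraries 2, 3 and 4 from CpG-pretreated mice, against 224, 264 and 233 CPM in the libraries of those numbers from untreated mice. Mcm5, with the smallest p of the group (Entrez 17218, chromosome 8, 75109468 to 75128439), was at 345, 292 and 277 CPM in libraries 2, 3 and 4 from CpG-pretreated mice, against 242, 239 and 214 CPM in the libraries of those numbers from untreated mice. With the block and pair 2 left out, Mcm5 was the only gene of the 6 called higher, though 6 of 6 were higher in pair 3 and in pair 4. For each of the 6 genes, every CpG-pretreated library exceeded every untreated one. Mcm6 (log2 fold change 0.41, SE 0.12, edgeR adjusted p = 0.176, and 0.0180 with the block) and Mcm5 (log2 fold change 0.40, SE 0.11, edgeR adjusted p = 0.160, and 0.00552 with the block) were at the upper end of log2 fold changes that ran from 0.34 for Mcm2 to 0.41. Divided by gene length, levels were 54.4 CPM per kb for Mcm2 to 109.9 for Mcm6 in CpG-pretreated libraries, and 43.0 to 82.8 in untreated libraries, so the ratio of the highest to the lowest subunit was 2.02 in CpG-pretreated and 1.93 in untreated libraries. These were among the most abundant of the 49 genes on that scale, where the median gene had 21.8 CPM per kb over all libraries.

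Of 4 genes that load the helicase, 3 rose with the block, and Orc6 was higher but not called. Cdc6, the loading ATPase (Entrez 23834, chromosome 11, 98907709 to 98923942), was at 40.0, 31.8 and 30.6 CPM after CpG pretreatment, against 24.6, 23.6 and 22.1 CPM in untreated mice (log2 fold change 0.54, SE 0.13, edgeR adjusted p = 0.105, and 0.00540 with the block). Cdt1, its partner, was at 87.2, 72.5 and 62.5 CPM after CpG pretreatment, against 53.1, 57.6 and 51.9 CPM in untreated mice (log2 fold change 0.45, SE 0.13, edgeR adjusted p = 0.176, and 0.0120 with the block). Orc1, the largest subunit of the origin recognition complex, had the largest fold change of the 49 at a low level, with counts of 62, 65 and 50 in the CpG-pretreated libraries, against 42, 26 and 28 in the untreated ones. That corresponded to 7.60, 8.24 and 6.30 CPM in CpG-pretreated and 5.16, 3.25 and 3.44 CPM in untreated libraries (log2 fold change 0.90, SE 0.24, edgeR adjusted p = 0.123, and 0.0211 with the block). In each of these 3 genes the groups did not overlap. Orc1 overlaps the gene Prpf38a in the annotation. Orc6 was 0.19 higher on the log2 scale (edgeR adjusted p = 0.788, and 0.301 with the block). Its groups overlapped, with log2 ratios of 0.11, 0.27 and 0.20 within pairs 2, 3 and 4.

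Among helicase activators, Mcm10 and Cdc45 rose with the block and 0 of 4 GINS genes did. Mcm10, which helps to start the loaded helicase (Entrez 70024, chromosome 2, 4990724 to 5012791), was at 61.2, 52.6 and 43.6 CPM in libraries 2, 3 and 4 from CpG-pretreated mice, against 32.7, 35.4 and 27.9 CPM in the libraries of those numbers from untreated mice. The groups were well separated (log2 fold change 0.71, SE 0.15, edgeR adjusted p = 0.0736, and 0.000424 with the block). Cdc45, which joins the active helicase, was the other gene that rose with the block (log2 fold change 0.44, edgeR adjusted p = 0.0150 with the block). The 4 GINS subunits were called in neither fit, with log2 fold changes of 0.17, 0.27, 0.06 and 0.01 for Gins1 to Gins4 (0 of 4 at an unadjusted p under 0.05 in either fit). Gins4, for example, was at 35.2, 28.3 and 31.5 CPM after CpG pretreatment, against 40.3, 27.1 and 27.2 CPM in untreated mice, where untreated library 2 was the highest of all 6. Directions for Gins3 and Gins4 are not settled, since the sign of Gins4 turned with library size only (-0.02) and upper quartile scaling (-0.03), and both signs turned when single libraries were left out. The Gins3 promoter shown above carries an E2F octamer close to the start. Whether GINS genes and Mcm10 differed in response was not tested.

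The clamp and its loader also held called and uncalled subunits of a complex. Rfc1, the large subunit of the clamp loader, was at 139, 147 and 126 CPM in libraries 2, 3 and 4 from CpG-pretreated mice, against 87.0, 115 and 114 CPM in the libraries of those numbers from untreated mice. Untreated library 2 was the lowest and the groups did not overlap (log2 fold change 0.38, SE 0.13, edgeR adjusted p = 0.247, and 0.0244 with the block). The small subunit genes Rfc2, Rfc4 and Rfc5 had log2 fold changes of 0.14, 0.26 and 0.20 and were not called in either fit. Rfc3 was at 23.7, 21.9 and 20.2 CPM after CpG pretreatment, against 27.9, 22.00 and 18.9 CPM in untreated mice, with overlapping groups (log2 fold change -0.07, SE 0.16, edgeR adjusted p = 0.944, and 0.831 with the block), and its sign turned to 0.11 without untreated library 2. Pcna, the sliding clamp, rose with the block only, at 122, 101 and 84.3 CPM after CpG pretreatment, against 99.2, 79.8 and 71.8 CPM in untreated mice (log2 fold change 0.29, SE 0.17, edgeR adjusted p = 0.551, and 0.0334 with the block). Its groups overlapped, yet each CpG-pretreated library exceeded the untreated one of its number, by 0.30, 0.34 and 0.23 on the log2 scale.

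All 8 polymerase and primase genes had log2 fold changes above 0. With the block 6 rose by edgeR, and without it edgeR called 0 of 8 (6 at an unadjusted p under 0.05), while DESeq2 called Pole and Pold1, edgeR with no filter on low counts called Pole, and the length offset without the block called Pola1, Pold1, Pold2 and Pole. Pole, the catalytic subunit of the leading-strand polymerase epsilon (Entrez 18973, chromosome 5, 110286319 to 110337468), was at 92.6, 103 and 84.9 CPM in libraries 2, 3 and 4 from CpG-pretreated mice, against 52.0, 67.5 and 56.7 CPM in the libraries of those numbers from untreated mice. The lowest CpG-pretreated value exceeded the highest untreated one, and the 1.59-fold difference came close to the threshold without the block (log2 fold change 0.67, SE 0.13, edgeR adjusted p = 0.0575, and 0.000242 with the block). Pold1, the catalytic subunit of polymerase delta and the most abundant polymerase gene by CPM, was at 144, 135 and 127 CPM after CpG pretreatment, against 104, 109.6 and 103 CPM in untreated mice (log2 fold change 0.36, SE 0.09, edgeR adjusted p = 0.125, and 0.0113 with the block). Pole2 and Prim2 were not called in either fit (adjusted p = 0.141 and 0.121 with the block). For Pola1, of polymerase alpha, and its primase partner Prim1, adjusted p with the block was 0.0354 and 0.0268.

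Replication protein A, which coats single-stranded DNA, was the role group in which 0 of 3 genes were called in either edgeR fit (1 of 3 at an unadjusted p under 0.05 in both, Rpa1). Rpa1 was at 190.5, 176 and 171 CPM after CpG pretreatment, against 147, 158 and 155 CPM in untreated mice, with small but non-overlapping differences (log2 fold change 0.22, SE 0.09, edgeR adjusted p = 0.359, and 0.113 with the block). Rpa3, the shortest of the 49 genes and among the least abundant, was at 11.4, 10.02 and 6.17 CPM after CpG pretreatment, against 16.0, 7.88 and 7.498 CPM in untreated mice. Its libraries ranged widely in both groups and the sign was not stable (log2 fold change -0.18, SE 0.34, edgeR adjusted p = 0.920, and 0.679 with the block), turning to 0.27 without untreated library 2 and to 0.03 without CpG-pretreated library 4. Among genes that finish the lagging strand, Lig1, encoding DNA ligase I, was at 153, 136 and 109 CPM after CpG pretreatment, against 102, 98.6 and 91.6 CPM in untreated mice (log2 fold change 0.45, SE 0.13, edgeR adjusted p = 0.177, and 0.00463 with the block). The flap nuclease gene Fen1 also rose with the block (adjusted p = 0.0389), and Rnaseh2a, a subunit of the enzyme that removes ribonucleotides, did not (log2 fold change 0.18, adjusted p = 0.425).

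Among genes of nucleotide supply, both subunits of ribonucleotide reductase, which makes deoxyribonucleotides, rose with the block. Rrm2, its small and cell cycle-regulated subunit (Entrez 20135, chromosome 12, 24708254 to 24714146), was at 146, 122 and 106 CPM in libraries 2, 3 and 4 from CpG-pretreated mice, against 86.6, 73.3 and 73.9 CPM in the libraries of those numbers from untreated mice. It had the smallest adjusted p of the 49 with the block (log2 fold change 0.68, SE 0.14, edgeR adjusted p = 0.0663, and 0.000192 with the block). Rrm1, the large subunit, was at 268, 222 and 203 CPM after CpG pretreatment, against 170.3, 170.4 and 170.5 CPM in untreated mice, so that the untreated libraries were nearly equal and CpG-pretreated libraries spread above them (log2 fold change 0.44, SE 0.12, edgeR adjusted p = 0.132, and 0.00701 with the block). Thymidylate synthase (Tyms, log2 fold change 0.33) and thymidine kinase 1 (Tk1, log2 fold change 0.35) were called in neither fit (adjusted p = 0.0806 and 0.0608 with the block).

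The 3 chromatin genes chosen here, which act behind the fork, all rose with the block. Uhrf1, which recruits the maintenance DNA methyltransferase to hemimethylated DNA (Entrez 18140, chromosome 17, 56303337 to 56323486), was at 176, 163 and 133 CPM in libraries 2, 3 and 4 from CpG-pretreated mice, against 101, 109.8 and 101 CPM in the libraries of those numbers from untreated mice. The groups stood well apart (log2 fold change 0.60, SE 0.12, edgeR adjusted p = 0.0662, and 0.000754 with the block). For Chaf1a and Chaf1b, subunits of the histone chaperone CAF-1, log2 fold changes were 0.48 and 0.43 (edgeR adjusted p = 0.00452 and 0.0456 with the block, and 0.107 and 0.349 without). Of 9 other replication-coupled chromatin genes, 5 rose with the block and 4 were not called. Those not called were Asf1a, Rbbp4, Rbbp7 and Slbp, with log2 fold changes of 0.10, 0.03, -0.02 and 0.25.

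Other genes of the same processes, 69 in 5 lists that hold none of the 49, had smaller differences. Their median log2 fold change was 0.22. Without the block 0 of 69 were called by edgeR (21 higher and 1 lower at an unadjusted p under 0.05, and 8 called higher by DESeq2). With the block 21 rose and 1 fell, against 4.73% and 3.78% of all genes tested. That which fell was Tk2, the mitochondrial thymidine kinase, which does not depend on the cell cycle, at 63.3, 61.5 and 67.3 CPM after CpG pretreatment, against 80.1, 77.5 and 80.3 CPM in untreated mice (log2 fold change -0.31, SE 0.09, edgeR adjusted p = 0.169, and 0.0265 with the block). By list, those called higher with the block were 4 of 14 further licensing and firing genes, 4 of 16 further fork components, 5 of 12 for nucleotide supply, 5 of 9 for chromatin and 3 of 18 for G1/S control. Pclaf, a PCNA-binding factor, was at 128, 93.7 and 93.1 CPM after CpG pretreatment, against 69.8, 61.0 and 61.8 CPM in untreated mice (log2 fold change 0.71, SE 0.14, edgeR adjusted p = 0.0670, and 0.000210 with the block). Dnmt1, the methyltransferase that Uhrf1 recruits, was at 267, 283 and 254 CPM after CpG pretreatment, against 172, 215 and 197 CPM in untreated mice (log2 fold change 0.46, SE 0.11, edgeR adjusted p = 0.0947, and 0.00246 with the block). Ticrr, which helps to load Cdc45, was 0.60 higher on the log2 scale (edgeR adjusted p = 0.00386 with the block). Tfdp2, a dimerization partner of E2F factors, had the largest fold change of these lists, at 45.1, 40.1 and 24.7 CPM after CpG pretreatment, against 13.9, 21.5 and 17.3 CPM in untreated mice (log2 fold change 1.06, SE 0.24, edgeR adjusted p = 0.0851, and 0.0413 with the block). CpG-pretreated library 4 was the lowest of its group, and it was also the CpG-pretreated library with the fewest erythroid transcripts. The part of red cell precursors in this gene's level was not tested. Of the origin recognition genes Orc2 to Orc5, the retinoblastoma gene Rb1 and the inhibitor genes Cdkn1a and Cdkn1b, 0 of 7 were called in either fit, with log2 fold changes from -0.19 to 0.14 and Orc2 at 0.09.

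The 18 genes of G2 and mitosis used for comparison had larger differences than the replication genes. They summed to 2537, 2058 and 2138 CPM in libraries 2, 3 and 4 of CpG-pretreated mice, against 1388, 1414 and 1443 CPM in untreated ones, with a median log2 fold change of 0.64. With the block 18 of 18 rose (4.73% of all genes tested), and 3 of 18 did without it (0.474%). The difference between the medians of 0.35 and 0.64 is a description and was not tested.

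**Figure D3:**
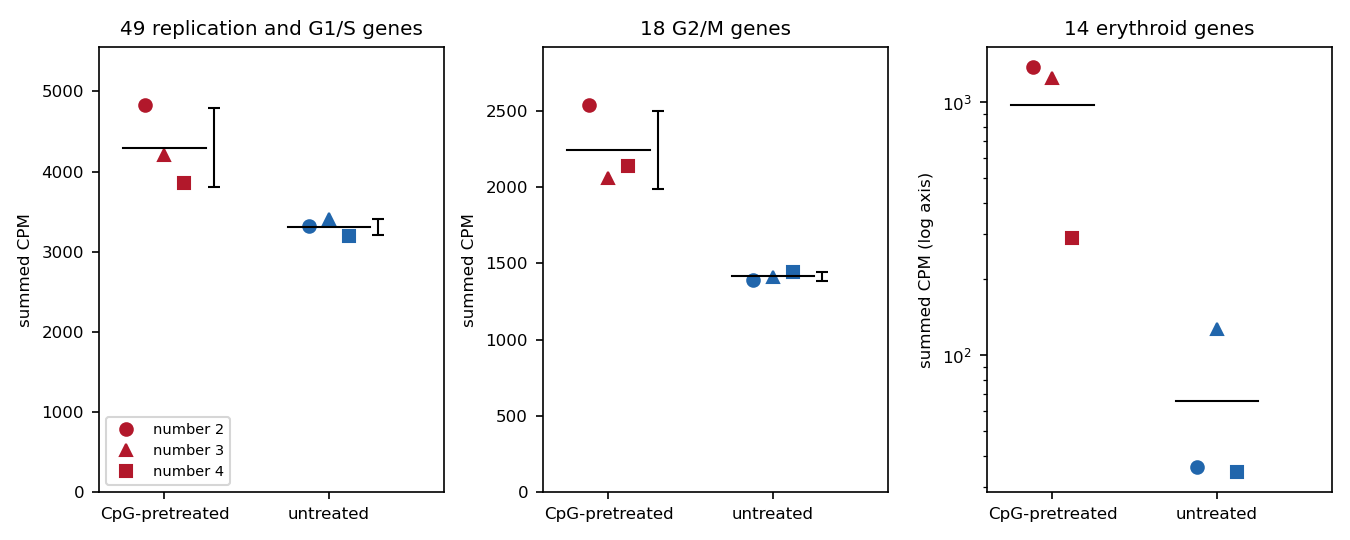
Summed CPM of the 49 replication and G1/S genes, of 18 G2/M genes and of 14 erythroid marker genes (log axis) in the CpG-pretreated and untreated libraries. Symbols mark the replicate number, horizontal lines the mean of 3 libraries and bars, in the first 2 panels, the SD. CpG-pretreated library 4 has the lowest erythroid sum of its group (291 CPM, against 34.4 to 126 CPM in untreated libraries) and a replication sum of 3858 CPM. The part of red cell precursors in the replication sums was not tested.

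Among the 49 genes, fold changes were larger for longer genes. Across the 49 genes the log2 fold change and the length in the deposited table had a Spearman correlation of 0.535, against 0.0717 over all 11602 genes tested and 0.11 over the 69 other genes of the pathway. These are correlations across genes that share the same 6 libraries, so no p is given. The 31 genes of 2 kb or longer had a median log2 fold change of 0.396 and 25 of them rose with the block, while the 18 shorter genes had a median of 0.266 and 5 rose with the block. Over all genes tested, those classes gave medians of 0.00 and -0.03, with 5.31% and 3.45% called higher with the block. Deviations of single libraries from their group mean also followed gene length, most of all in libraries numbered 2, with Spearman correlations of -0.55 in CpG-pretreated 2 and -0.67 in untreated 2. With a length trend removed from each library, the correlation among the 49 genes was 0.506, their median log2 fold change stayed at 0.35, and 14 of the 49 rose without the block and 31 with it. Short genes also have fewer counts at a given molar level, which makes a call less likely. The part of length in the lower fold changes of Gins1, Gins2, Gins4, Rfc2 to Rfc5 and Rpa3 was otherwise not tested. Gins3 is among the longer genes, with a log2 fold change of 0.06.

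**Figure D4:**
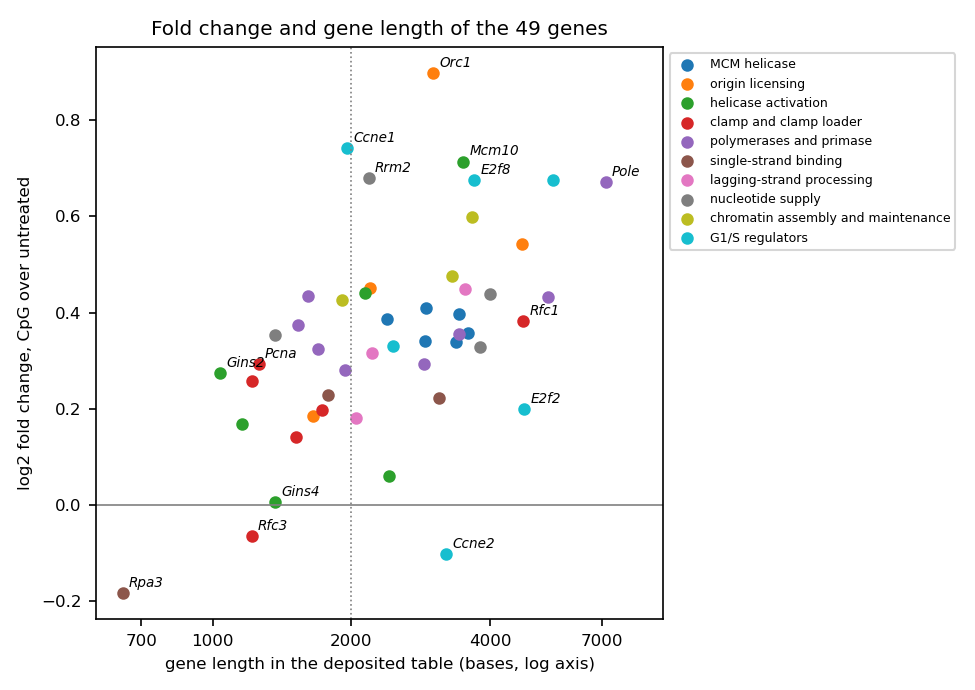
Log2 fold change of CpG-pretreated over untreated against gene length (log axis) for the 49 genes, coloured by role, with the dotted line at 2000 bases. Most of the small fold changes lie among genes under 2 kb, with Ccne2, Gins3, Rnaseh2a, E2f2 and Rpa1 as longer genes of small fold change and Ccne1 as a shorter one with a large fold change.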

How the data were processed

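The authors deposited unnormalized read counts, whole numbers for each Entrez ID, with gene lengths. Per the submitters' processing notes, the tools included CASAVA and featureCounts and the build was mm10. Not given in any source used here were tool versions, the read aligner, whether strand was used and how multi-mapped reads were counted. Per the labels' protocols, enriched splenic dendritic cells were sorted, lysed without culture, and polyadenylated RNA was sequenced. The counts in the 6 sample files equalled those in the series table. Symbols came from RefSeq for GRCm38.p6 by gene ID (25275 of 27179 matched, the others holding 0.327% of the counts).

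Counts were analysed with edgeR 4.0.16 in R 4.3.3. Genes passing filterByExpr (minimum count 10, minimum total 15), 11602 in all, were fitted with TMM normalization, robust dispersions and the quasi-likelihood F test, two-sided, with Benjamini-Hochberg adjustment and a threshold of 0.05. Fold changes are CpG-pretreated over untreated, and each SE is the fold change divided by the root of its F statistic. CPM values use TMM-scaled library sizes, and ratios within pairs add 0.25 CPM. The procedure was tested on simulated data. Libraries of a group differed beyond sampling noise (chi-square per degree of freedom 3.30 to 20.9) and were kept as separate replicates.

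Sample numbers 2, 3 and 4 occur in both groups, without a label for what they stand for. Deviations from the group mean correlated between same-numbered libraries at 0.48, 0.25 and 0.31, each over the minimum of 0.1 set here. Between libraries of different numbers the correlations were -0.39 to 0.07. Deviations from a group mean cancel out within the group, so positive correlations at the same number lower those at different numbers. The contrast between them is therefore not independent evidence of pairing. These deviations also followed gene length, as described above. The main fit left libraries unpaired, and the block, which pairs libraries of a number, is given beside it as an alternative. Values in each library are given for members called without the block, for the member with the smallest p and the highest CPM of each role, for those with a fold change below 0, and for others chosen after their values were seen. The members and lists were chosen with earlier results of these data known. In the RefSeq annotation 14 of the 49 genes overlap a protein-coding gene (Ccne2, Cdc45, Chaf1a, E2f1, Fen1, Gins2, Lig1, Mcm7, Orc1, Pold2, Pole2, Rfc4, Rpa1 and Tk1), and without a known strand setting reads in a shared part cannot be told apart. Alternatives were other scalings, filters, DESeq2 1.42.0, limma-voom (limma 3.58.1), a length offset, the replicate block and libraries left out in turn, and, added after seeing the data, the block with each pair left out.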

Additional observations from a re-analysis of the deposited data

How the results depend on the processing

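The median log2 fold change of the 49 genes kept its direction in every alternative run, and no member was called lower in any of them. It was 0.35 in the main fit and ranged from 0.23 without CpG-pretreated replicate 2 to 0.41 without CpG-pretreated replicate 4. It moved by less than the spread of its pair medians (SD 0.129), a spread that pair 2, the highest, itself widens. Numbers of calls depended on the fit. With the replicate block (pairing by number), 988 genes were called, 30 of the 49 rose, and 21 of the 69 other pathway genes rose, against 113, 1 and 0 without it. The same 3 counts were 426, 11 and 8 by DESeq2, 189, 5 and 1 without a filter on low counts, 387, 14 and 8 with the length offset, and 1150, 31 and 23 with the length offset and the replicate block. By limma-voom they were 41, 0 and 0 (29 of the 49 and 21 of the 69 higher at an unadjusted p under 0.05). Leaving out 1 library at a time gave 0 to 386 genes, 0 to 8 of the 49 and 0 to 2 of the 69. All 11 genes called by DESeq2 and all 14 called with the length offset were among the 30 called with the block. Leaving out CpG-pretreated replicate 2 or 3, edgeR called 0 genes (1065 and 1107 at an unadjusted p under 0.05, DESeq2 not having been run there), and leaving out CpG-pretreated replicate 4 gave 386 and 8. Leaving out 1 pair under the replicate block, added after seeing the data, gave 513, 11 and 7 without replicate 2, 482, 17 and 8 without replicate 3, and 1594, 30 and 23 without replicate 4. The cause of these differences was not tested. Fits that leave some libraries out also have fewer libraries, and the part of that in the counts was not tested either.

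Signs turned for 4 members with no call in any fit. Gins4 gave -0.0194 with library size only and -0.0328 with upper quartile scaling. Leaving out 1 library at a time gave -0.0943 to 0.236 for Gins4, -0.0507 to 0.2 for Gins3, -0.380 to 0.273 for Rpa3 and -0.189 to 0.113 for Rfc3. Under the replicate block with 1 pair left out, Gins4 gave -0.000538 without replicate 3 and -0.0819 without replicate 4, Gins3 gave -0.143 without replicate 4, and without replicate 2 Rpa3 gave 0.0569 and Rfc3 0.0433. At this depth Orc1 had 26 to 65 counts in a library, and its fold change has a standard error of 0.24.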
